A study of Homo sapiens with 9 samples.

Results

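Interferon-stimulated genes (ISGs) of the type I response were followed through 3 human breast cell lines derived from MCF-10A. The list holds 44 genes, taken by name from the core of the antiviral response, from IFI, IFIT, IFITM, MX and OAS genes to the IRF and STAT factors that switch them on. Of these, 43 had a probe set annotated to that gene alone, and 36 had enough signal to be tested, among 12594 genes tested of 19775 with a probe set. STAT2 was not analysed here. The tested lines were, in the order of their labelled stages, MCF-10AT1Kcl2 (MII, for carcinoma in situ), MCF-10A1h (MIII, for carcinoma) and MCF-10A1a (MIV, for metastatic carcinoma), each with 3 one-colour Affymetrix arrays of total RNA. All of them descend from MCF-10A, a non-tumorigenic breast epithelial line, and all carry activated HRAS. They were grown in the same DMEM/F12 medium with horse serum, insulin, cholera toxin, EGF and hydrocortisone, and no interferon or other agent is named for any of them. Each stage is represented by 1 cell line, so line and stage cannot be told apart. The arrays of a line are labelled biological replicates but not tied to separate cultures, so the p-values rest on the spread among 3 arrays, and part of that spread may be technical.

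Type I interferons bind the IFNAR1 and IFNAR2 receptor chains, whose kinases JAK1 and TYK2 phosphorylate STAT proteins. Phosphorylated STATs join IRF9 into a complex, ISGF3, that binds the interferon-stimulated response element (ISRE) in the promoters of its targets, while STAT dimers bind a different element, GAS. The proteins made in this way block viral entry, translation, replication and release. Epithelial cells keep many of these genes at a low level without added interferon, and some tumours and tumour lines keep a subset of them raised without treatment.

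The promoters of the genes that rose in MIII are shown first, since ISGs share a short sequence that can be read directly. RefSeq promoters of the GRCh38.p14 assembly were available for 7 of the 9 genes that were higher in MIII than in MII, and each of the 7 held the letters GAAANNGAAA, or TTTCNNTTTC on the other strand, in the 250 bases before the gene start. The capitals in the following 60-base stretches, printed 5′ to 3′ along the strand of the gene, mark those letters.
BST2, chr19:17405720-17405779, minus strand: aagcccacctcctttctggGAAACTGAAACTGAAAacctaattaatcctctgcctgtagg
IFITM1, chr11:313975-314034, plus strand: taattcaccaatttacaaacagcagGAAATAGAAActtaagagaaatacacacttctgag
IFITM3, chr11:320861-320920, minus strand: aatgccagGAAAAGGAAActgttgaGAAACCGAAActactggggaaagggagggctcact
IFI44L, chr1:78620350-78620409, plus strand: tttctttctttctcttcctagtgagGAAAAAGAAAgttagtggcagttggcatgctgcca
IFI44, chr1:78649729-78649788, plus strand: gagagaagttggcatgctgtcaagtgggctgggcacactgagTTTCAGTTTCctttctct
IFI6, chr1:27672251-27672310, minus strand: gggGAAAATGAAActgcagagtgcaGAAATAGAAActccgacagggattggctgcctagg
IFIT3, chr10:89332453-89332512, plus strand: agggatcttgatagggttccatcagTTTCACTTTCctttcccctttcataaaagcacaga
The match nearest to the gene start began between 18 bases before it in IFI44 and 124 bases before it in BST2. Within the printed stretches BST2, IFITM3 and IFI6 each had 2 matches, which overlapped in BST2.

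The same letters occurred in genes of the list that were not called higher in MIII than in MII. Shown here are 1 gene that was lower in MIV than in MII and MIII (EPSTI1) and 1 that was lower in MIII than in MII (SAMD9). With them are 4 that were not called between MIII and MII (ISG15, OAS3, IFIT5 and DDX60). Of these 4, IFIT5 and DDX60 were higher in MIII by less than 2-fold, at log2 changes of 0.41 and 0.62.
EPSTI1, chr13:42992257-42992316, minus strand: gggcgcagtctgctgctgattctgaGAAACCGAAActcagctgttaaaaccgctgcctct
SAMD9, chr7:93118081-93118140, minus strand: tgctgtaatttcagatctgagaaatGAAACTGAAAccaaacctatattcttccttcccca
ISG15, chr1:1013365-1013424, plus strand: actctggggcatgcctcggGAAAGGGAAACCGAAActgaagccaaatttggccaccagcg
OAS3, chr12:112938414-112938473, plus strand: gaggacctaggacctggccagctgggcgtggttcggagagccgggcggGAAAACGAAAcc
IFIT5, chr10:89414508-89414567, plus strand: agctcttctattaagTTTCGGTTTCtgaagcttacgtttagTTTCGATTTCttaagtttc
DDX60, chr4:168318771-168318830, minus strand: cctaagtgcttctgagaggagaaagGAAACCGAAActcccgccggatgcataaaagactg
Over the list, 26 of 35 genes with a promoter in the table held GAAANNGAAA (74.3%), against 1061 of all 35116 promoters (3.02%) and 333 of 10232 tested genes with a promoter (3.25%). Among tested members that were not called between MIII and MII the share was 14 of 19 (73.7%). The promoter of OAS1 held no match in this window. The second element was searched as TTCNNNGAA, which reads the same on both strands and was counted also where it overlapped the first. It was found in 11 of the 35 members with a promoter (31.4%), against 6.57% of all promoters and 7.49% of tested genes with a promoter. These matches describe letters and are not binding sites, and the members were collected as interferon targets.

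Values are MAS5 signals, which the submitters' processing notes name and which are linear intensities for 1 probe set on 1 array. Median signals of the 9 arrays lay between 64.7 and 74.9. Testing a gene required a signal over the pooled median of 69.3 on 3 or more of the 9 arrays. Changes are log2 differences of (signal + 18.3) with standard errors (SE) from limma, an offset that shrinks the change of genes with low signal, and a call required both an adjusted p under 0.05 and a 2-fold or larger difference. With 3 arrays a line the median SE was 0.107, and that number sets the precision. One spike-in control, bioB-3, read 3169.8 on MIV replicate 3, against 965.1 to 1547.1 on the other arrays. In RNA from whole cultures, fewer cells with a transcript and less transcript per cell cannot be told apart.

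Members called between MIII and another line were mostly higher in MIII. Among them, IFI44, IFI44L, IFI6 and OAS2 passed the filter only through their MIII arrays, so they had to be high there. These 4 members are part of the 9 and the 10 given next. Between MIII and MII, 9 members were higher, 25% of the 36 tested against 6.17% of all genes tested, and 2 were lower, 5.56% against 5.55%. Between MIV and MIII, 1 member was higher, 2.78% against 4.95%, and 10 were lower, 27.8% against 7.79%. Between MIV and MII the calls were divided, with 5 higher (13.9% against 2.96%) and 4 lower (11.1% against 5.18%). Without MIV replicate 3 the lower calls numbered 2. The comparisons share arrays and are not independent of each other.

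The median change of the tested members was 0.44 on the log2 scale for MIII against MII, -0.38 for MIV against MIII and 0.05 for MIV against MII (0.235 without MIV replicate 3 and -0.0535 without the filter), while the median over all tested genes was -0.02, -0.01 and -0.03. The arrays of MIII and MII did not overlap for 30 members, 83.3% against 55.3% of all genes, with all MIII arrays above for 23 (26.7% of all genes) and below for 7 (28.6% of all genes). Those of MIV and MIII did not overlap for 28, 77.8% against 58.8%, with all MIV arrays above for 10 (28.4% of all genes) and below for 18 (the share of all genes was 30.4%). For MIV and MII the count was 25, 69.4% against 50.7%, with 14 above and 11 below, where the shares of all genes were 23.7% and 27.1%. The filter bears on these counts, because 4 members (IFI44, IFI44L, IFI6 and OAS2) passed it only through their MIII arrays.

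Of the members, 8 carried the MIII pattern, IFITM1, IFITM2, IFITM3, IFI44, IFI44L, IFI6, IFIT3 and OAS2, each called higher in MIII than in both MII and MIV. That was 22.2% of the tested members, against 4.07% of all genes tested. IFI44, IFI44L, IFI6 and OAS2 passed the filter only through MIII, so they had to be high there. Without genes that passed only through 1 line, a comparison chosen after seeing the data, the pattern was left in 4 of 32 members (12.5%) and in 2.68% of all genes. Among all 36 tested, no member was called lower in MIII than in both other lines, against 2.91%. OAS1, EPSTI1, IFI44L and IFITM1 were lower in MIV than in MII and in MIII (11.1% against 2.4%), and IRF7 alone was higher in MIV than in both (2.78% against 0.993%). BST2 and IFIT3 were lower in MII than in both (5.56% against 1.3%), and OAS1 was higher in MII than in both (2.78% against 2.06%). No call was made in any comparison for 21 of the 36 members (58.3%), against 81.1% of all genes. Of these 21, 18 had an adjusted p under 0.05 in at least 1 comparison and missed the 2-fold minimum. An adjusted p under 0.05 was common among all genes tested, called ones included. It was met by 51.9% for MIV against MIII, 42.2% for MIV against MII and 47.2% for MIII against MII. How many of all uncalled genes met it in at least 1 comparison was not counted.

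Markers of other cell types were read beside these results. The summed signal of 7 fibroblast markers was 422.0 to 458.2 in MII, 4523.2 to 4792.4 in MIII and 402.1 to 436.9 in MIV. Of 5 tested, COL3A1, DCN, LUM and THY1 were higher in MIII than in MII and lower in MIV than in MIII, while COL1A1 was not called and COL1A2 and PDGFRB lay under the pooled median in all lines. The sum over 7 epithelial markers was 109312 to 114499 in MII, 65750.1 to 66860.3 in MIII and 108210 to 118369 in MIV, with EPCAM and CDH1 lower in MIII than in MII and KRT5 not called in any comparison. KRT14, a basal keratin, was lower in MIII than in MII at a log2 change of -1.16 ± 0.11 and lower again in MIV than in MIII at a log2 change of -2.66 ± 0.11, so it did not follow the summed level. The fibroblast markers were high in the same line as the 8 members above, and the part of either marker set in the result was not tested.

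The sum over 7 leukocyte markers was 1668.7 to 1865.8 in MII, 747.7 to 928.4 in MIII and 466.9 to 641.5 in MIV, most of it CD14. The pan-leukocyte marker PTPRC averaged 13.3 ± 12.8 in MII, 28.3 ± 8.2 in MIII and 15.7 ± 20.9 in MIV (mean ± SD, 3 arrays), under the pooled median in each line. Endothelial markers summed to 128.9 to 240.4 in MII, 235.4 to 328.1 in MIII and 255.2 to 354.4 in MIV, with VWF and CDH5 near the floor.

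**Figure D1:**
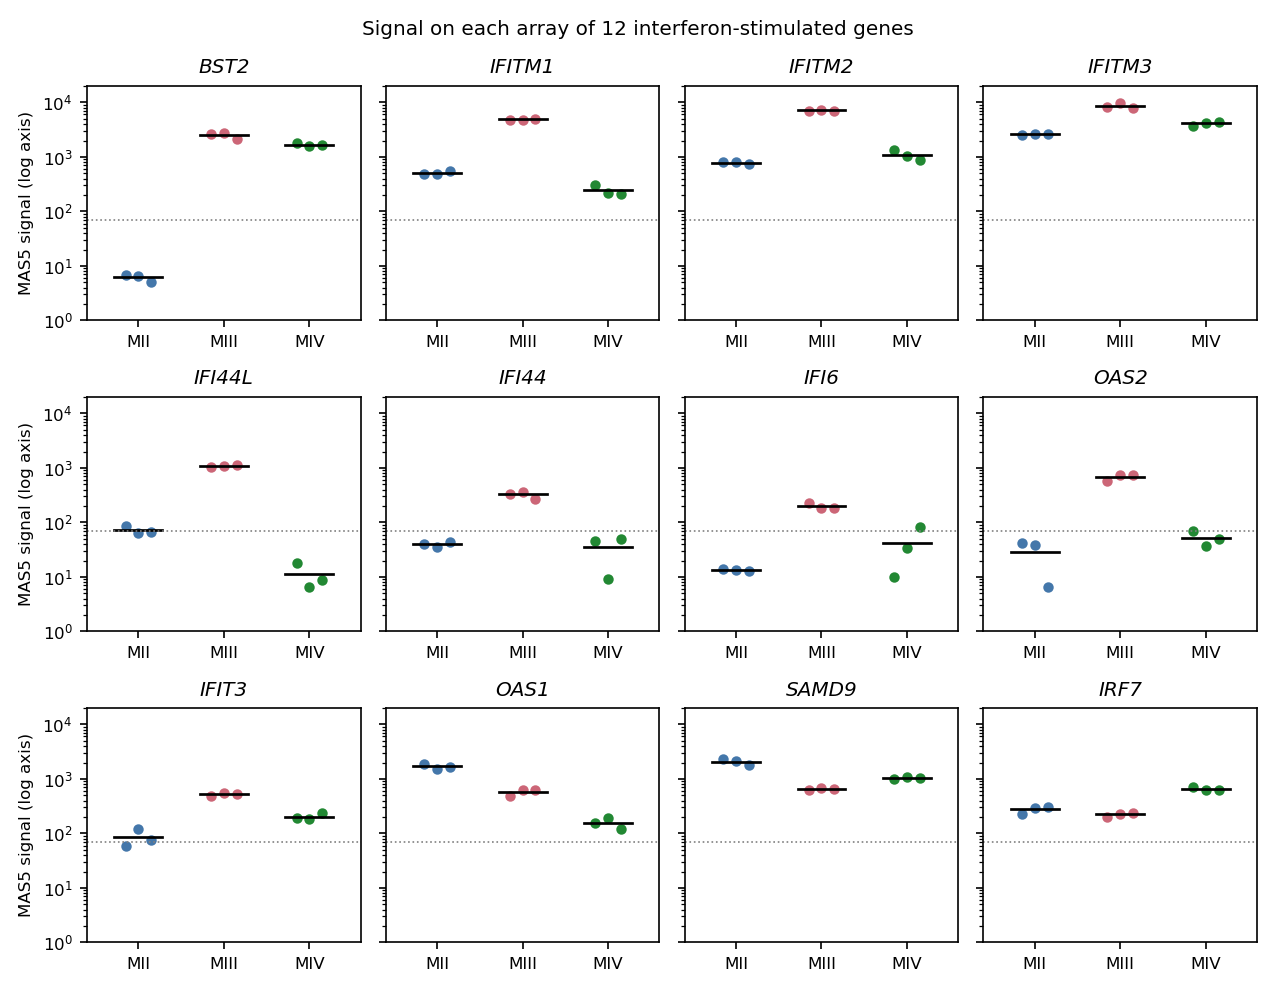
MAS5 signal on each of the 9 arrays, on a log axis, for 12 interferon-stimulated genes in MII, MIII and MIV. Points are arrays, black bars are the mean of 3 arrays, and the dotted line is the pooled median of 69.3. BST2 lies under the line on the 3 MII arrays and far above it on the other 6, while IFI44L, IFI44, IFI6 and OAS2 are clearly above it only in MIII, and OAS1 steps down from MII through MIII to MIV.

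All 4 membrane restriction factors were called higher in MIII than in MII, against 6.17% of all genes tested. Of them, IFITM1, IFITM2 and IFITM3 are close paralogs whose probe sets may cross-hybridise, so they may not be separate observations. BST2, also called tetherin, holds budding viral particles at the cell surface. Its signal was 6.9, 6.6 and 5.0 on the MII arrays, 2594, 2766 and 2147 on the MIII arrays and 1809.8, 1583 and 1633 on the MIV arrays. MII lay far under the pooled median, while both other lines were high on every array. BST2 was higher in MIII than in MII by 6.68 ± 0.11 (SE; limma adjusted p = 1.47e-14), or 102-fold on the offset scale, and higher in MIV than in MII by 6.11 ± 0.11 (adjusted p = 1.55e-13). The change between MIV and MIII, -0.57 ± 0.11, was under the 2-fold minimum, although no MIV array reached the lowest MIII array.

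The IFITM proteins sit in plasma and endosomal membranes and hinder the fusion of enveloped viruses with the cell. IFITM1 had signals of 477, 480.3 and 561 in MII, 4731, 4838 and 5003 in MIII and 309, 215 and 206 in MIV. The 3 lines did not overlap, with MIII highest and MIV lowest. IFITM1 was 9.32-fold higher in MIII than in MII (3.22 ± 0.12, limma adjusted p = 9.41e-11) and 18.9-fold lower in MIV than in MIII (-4.24 ± 0.12, adjusted p = 5.24e-12). The change between MIV and MII was close to the fold minimum, at -1.02 ± 0.12 (adjusted p = 1.77e-05). It fell short of that minimum when MII replicate 3 (-0.95), MIV replicate 2 (-0.95) or MIV replicate 3 (-0.92) was left out, and also after quantile normalization (-0.94) or scaling to equal medians (-0.98).

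IFITM2 and IFITM3 followed IFITM1 in MIII but not in MIV. IFITM2 had signals of 821, 812 and 729.8 in MII, 7020.4, 7370.4 and 6945 in MIII and 1342, 1032 and 895 in MIV. Every MIII array exceeded every other array, and the change was 3.15 ± 0.11 for MIII against MII (limma adjusted p = 3.48e-11) and -2.71 ± 0.11 for MIV against MIII (adjusted p = 1.58e-10). IFITM3, which acts mainly in endosomes, had signals of 2511, 2686 and 2612 in MII, 8372, 9756 and 7956 in MIII and 3679, 4201 and 4450.5 in MIV. Its change was smaller, 1.73 ± 0.08 for MIII against MII (adjusted p = 5.98e-10) and -1.08 ± 0.08 for MIV against MIII (adjusted p = 7.83e-08), and the second was not called without MIII replicate 2 (-0.99) or MIV replicate 1 (-0.999). MIV arrays lay above MII arrays for both genes, by 0.44 ± 0.11 in IFITM2 and 0.65 ± 0.08 in IFITM3, without reaching 2-fold. These paralogs are close in sequence and their probe sets carry suffixes that mark possible cross-hybridisation, so how the signal divides among the 3 genes is uncertain.

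IFI44L and IFI44, neighbouring antiviral genes whose mechanism is not fully known, showed the same ranking with MIII on top. IFI44L had signals of 87.1, 64.5 and 68.0 in MII, 1058, 1084 and 1148 in MIII and 18.1, 6.5 and 8.7 in MIV. The lines were separate, and MIV lay under the pooled median on every array. On the log2 scale with the offset, the gene was higher in MIII than in MII by 3.61 ± 0.21 (limma adjusted p = 5.61e-09), lower in MIV than in MIII at a log2 change of -5.26 ± 0.21 (adjusted p = 1.05e-10) and lower in MIV than in MII at a log2 change of -1.65 ± 0.21 (adjusted p = 2.35e-05), the last of which missed 2-fold with an offset of the pooled median (-0.83). The 3 MIV signals lay under the offset of 18.3, and the log2 change of IFI44L for MIV against MIII was -6.62 with an offset of 1 and -3.86 with one of the pooled median. IFI44 had signals of 40.4, 35.2 and 44.1 in MII, 336, 368 and 274 in MIII and 46.5, 9.0 and 48.8 in MIV. MII and MIV overlapped under the pooled median, so only MIII stood out, by 2.56 ± 0.33 over MII (adjusted p = 2.03e-05) and with MIV lower at a log2 change of -2.80 ± 0.33 (adjusted p = 7.53e-06).

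IFI6 encodes a small protein that opposes flavivirus replication at the endoplasmic reticulum and delays apoptosis. Its signal was 14.2, 13.3 and 13.0 in MII, 227, 181 and 186 in MIII and 10.0, 34.6 and 82.1 in MIV. MIII was highest, and the MIV arrays were spread from below MII to above the pooled median. IFI6 was higher in MIII than in MII by 2.76 ± 0.40 (limma adjusted p = 6.42e-05) and lower in MIV than in MIII at a log2 change of -2.02 ± 0.40 (adjusted p = 0.000786). MIV differed from MII by 0.74 ± 0.40 (adjusted p = 0.163), and by 1.20, which was called, when MIV replicate 1 was left out.

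EPSTI1, an interferon-induced gene first found in breast epithelium grown beside stroma, was low in MIV. Its signal was 155, 124 and 127 in MII, 223, 218 and 198 in MIII and 65.7, 60.7 and 22.5 in MIV. All MIV arrays lay under the pooled median and below the other 6. EPSTI1 was lower in MIV than in MIII at a log2 change of -1.84 ± 0.27 (limma adjusted p = 5.22e-05) and lower in MIV than in MII at a log2 change of -1.24 ± 0.27 (adjusted p = 0.00194), and without MIV replicate 3 the second value was -0.91 and was not called. The call was also lost with the mean of both EPSTI1 probe sets (-0.41).

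LGALS3BP, a secreted glycoprotein that binds galectins and is abundant in breast cancer, ran the other way. Its signal was 3588, 3325 and 3727 in MII, 6002, 5629.8 and 5456 in MIII and 8028, 8296 and 8088 in MIV. The lines formed 3 separate steps with MIV highest. Only MIV against MII passed the fold minimum, at 1.20 ± 0.06 (limma adjusted p = 9.32e-10), with 0.68 ± 0.06 for MIII against MII and 0.51 ± 0.06 for MIV against MIII.

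PLSCR1, a phospholipid scramblase, and IFI27, a mitochondrial protein, were not called. PLSCR1 averaged 5299.8 ± 166 in MII, 3922 ± 141 in MIII and 4362 ± 8.9 in MIV (mean ± SD, 3 arrays). IFI27, strongly induced in blood during viral infection, averaged 81.3 ± 7.9, 71.4 ± 22.8 and 75.8 ± 26.6 in MII, MIII and MIV, and its arrays overlapped in every comparison.

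IFIT proteins bind viral RNA and block its translation. IFIT3, which stabilises the complex with IFIT1, had signals of 58.2, 122 and 75.5 in MII, 480.0, 558 and 535 in MIII and 188, 188 and 234 in MIV. The 3 lines did not overlap, with MIV between the others. IFIT3 was 5.41-fold higher in MIII than in MII (2.43 ± 0.20, limma adjusted p = 2.71e-07) and lower in MIV than in MIII at a log2 change of -1.30 ± 0.20 (adjusted p = 0.000104). MIV exceeded MII by 1.14 ± 0.20 (adjusted p = 0.000486), which became 0.94 and was not called without MII replicate 1. With the mean of both IFIT3 probe sets, the changes of MIV against MIII (-0.85) and MIV against MII (0.94) were not called.

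The other IFIT genes showed no such steps by the probe sets used. IFIT5 had signals of 814, 860.1 and 786 in MII, 1027, 1155 and 1099 in MIII and 950.2, 1329.8 and 891 in MIV, with a change of 0.41 ± 0.12 for MIII against MII (limma adjusted p = 0.0135). A further IFIT5 probe set gave -1.18 for MIV against MIII, where the one used gave -0.07, so the 2 probe sets of this gene differ in call. IFIT2 had signals of 54.8, 54.8 and 69.6 in MII, 136, 77.8 and 58.5 in MIII and 108, 78.5 and 4.8 in MIV, and its arrays overlapped throughout. IFIT1 was not tested, with 20.9, 25.1 and 5.3 in MII, 49.8, 44.5 and 91.9 in MIII and 14.0, 7.7 and 4.7 in MIV. MIII was again the highest line for IFIT1, although only 1 array exceeded the pooled median.

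The oligoadenylate synthetases make a second messenger that activates RNase L when they meet double-stranded RNA, and here their members moved in opposite directions. OAS2 had signals of 41.3, 37.9 and 6.6 in MII, 577, 733 and 736 in MIII and 69.7, 37.4 and 50.2 in MIV. MIII stood clear of both other lines, which overlapped. With MII under the pooled median on every array, the size of its change for MIII against MII depends on the offset, and was 4.87 with an offset of 1 and 2.95 with one of the pooled median. OAS2 was higher in MIII than in MII by 3.99 ± 0.32 with the offset of 18.3 (limma adjusted p = 1.56e-07) and lower in MIV than in MIII at a log2 change of -3.32 ± 0.32 (adjusted p = 8.97e-07). Its 2 further probe sets gave 2.34 and 2.44 for MIII against MII and -2.04 and -1.85 for MIV against MIII.

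OAS1 was highest in MII. Its signal was 1881, 1546 and 1647 in MII, 489.7, 614 and 632 in MIII and 156, 189 and 119 in MIV. The arrays of the 3 lines did not overlap and fell with each labelled stage. OAS1 was lower in MIII than in MII at a log2 change of -1.52 ± 0.15 (limma adjusted p = 1.25e-06), lower in MIV than in MIII at a log2 change of -1.80 ± 0.15 (adjusted p = 2.1e-07) and lower in MIV than in MII at a log2 change of -3.32 ± 0.15 (adjusted p = 6.79e-10). The further OAS1 probe set gave -1.75, -1.29 and -3.04 for the same comparisons.

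OAS3 and OASL were not called. OAS3, the form with the most synthetase units, had signals of 952, 962 and 850.1 in MII, 1022, 935 and 1031 in MIII and 729, 834 and 726 in MIV, and its MIV arrays lay under the others by less than 2-fold. OASL, which lacks synthetase activity and supports RIG-I signalling, had signals of 240.0, 302 and 224 in MII, 426, 433 and 408 in MIII and 216, 193 and 220.2 in MIV. MIII was above both lines, by 0.70 ± 0.14 over MII (limma adjusted p = 0.000748) and with MIV at -0.95 ± 0.14 against MIII (adjusted p = 4.49e-05). The further OASL probe set passed the fold minimum in both comparisons, at 1.34 and -1.59.

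Of the sensors of viral RNA on the list, neither was called. IFIH1 (MDA5) binds long double-stranded RNA and had signals of 354, 326 and 314 in MII, 214, 209.9 and 236 in MIII and 439, 409 and 312 in MIV. MIII was the lowest line, at a log2 change of -0.55 ± 0.14 against MII (limma adjusted p = 0.00502) and with MIV at 0.75 ± 0.14 against MIII (adjusted p = 0.000446). DDX60, a helicase linked to RIG-I signalling, had signals of 169.6, 247 and 184 in MII, 312, 322 and 307 in MIII and 399.6, 340.2 and 421 in MIV, and its change of 0.90 ± 0.15 for MIV against MII (adjusted p = 0.00024) passed 2-fold only without MII replicate 2 (1.05).

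The interferon-induced GTPases on the list were near the floor or below the fold minimum. GBP1, a guanylate-binding protein that coats intracellular bacteria, had signals of 418, 441 and 371 in MII, 557, 642 and 598 in MIII and 433, 356 and 321 in MIV. By this probe set MIII was above both other lines, by 0.53 ± 0.12 over MII (limma adjusted p = 0.00277) and with MIV at -0.68 ± 0.12 against MIII (adjusted p = 0.000364). Further GBP1 probe sets that passed the filter gave smaller changes, 0.33 and 0.25 for MIII against MII and -0.28 and -0.13 for MIV against MIII. In both of them the MIV and MIII arrays overlapped. GBP2 had signals of 117, 138 and 123 in MII, 171, 149 and 164 in MIII and 91.6, 98.3 and 90.3 in MIV, again with MIII highest and no call. MX1 and MX2, dynamin-like proteins that trap viral nucleocapsids, were not tested, with signals of 5.2 to 64.2 for MX1 and 7.6 to 74.3 for MX2 over the 9 arrays.

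Among the intracellular effectors, SAMD9 was the one called. SAMD9, which restricts poxviruses and slows cell growth, had signals of 2274, 2150.3 and 1808 in MII, 634, 673 and 654 in MIII and 1003, 1081 and 1045 in MIV. The 3 lines were separate, with MII highest and MIII lowest. SAMD9 was 3.1-fold lower in MIII than in MII (-1.63 ± 0.09, limma adjusted p = 2.09e-09). MIV lay below MII at a log2 change of -0.98 ± 0.09 (adjusted p = 6.98e-07), just under the fold minimum, and was called without MII replicate 3 (-1.07) or MIV replicate 2 (-1.001). SAMD9L, its adjacent paralog, had signals of 116, 122 and 117 in MII, 227, 188 and 186 in MIII and 145, 142 and 109.6 in MIV, so its MIII arrays were the highest where those of SAMD9 were the lowest.

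ISG20, an exonuclease that degrades viral RNA, and TRIM22, a ubiquitin ligase, were not called by the probe sets used. ISG20 had signals of 487, 513 and 631 in MII, 469, 445 and 422 in MIII and 833, 798 and 852 in MIV. MIV was the highest line, by 0.87 ± 0.10 over MIII (limma adjusted p = 9.34e-06) and 0.60 ± 0.10 over MII (adjusted p = 0.000405), and a further ISG20 probe set gave 1.10 and 1.18. TRIM22 averaged 2686 ± 262 in MII, 2024 ± 122 in MIII and 2119 ± 198 in MIV (mean ± SD, 3 arrays). RSAD2 (viperin) and its neighbour CMPK2, enzymes that make and feed a chain-terminating nucleotide, were not tested, with signals of at most 43.1 and 23.6.

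The ADP-ribosyltransferases PARP9, PARP12 and PARP14 had their lowest mean in MII and their highest in MIV. PARP14, which modifies proteins at sites of the interferon response, had signals of 179, 185 and 139.9 in MII, 321, 226 and 302 in MIII and 339.6, 425 and 338 in MIV. All MIV arrays exceeded the other 6, and PARP14 was higher in MIV than in MII by 1.05 ± 0.17 (limma adjusted p = 0.000179). That call was lost without MII replicate 3 (0.94) or MIV replicate 2 (0.95), and with the mean of both PARP14 probe sets (0.17). PARP12 averaged 631 ± 38.9 in MII, 721 ± 33.7 in MIII and 918 ± 37.8 in MIV, and PARP9 averaged 407 ± 38.9, 515 ± 25.8 and 519 ± 16.8 in MII, MIII and MIV (mean ± SD, 3 arrays). Neither gene was called.

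Of the regulators, IRF7 alone was called. IRF7 is the factor that drives the second wave of interferon production and is itself an ISG. Its signal was 229, 294 and 302 in MII, 200.4, 231 and 238 in MIII and 704, 621 and 629 in MIV. MII and MIII overlapped and every MIV array was above both. IRF7 was 2.78-fold higher in MIV than in MIII (1.47 ± 0.13, limma adjusted p = 4.77e-07) and higher in MIV than in MII by 1.20 ± 0.13 (adjusted p = 6.37e-06). Its only probe set carries a suffix for possible cross-hybridisation.

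IRF1, a factor induced by both interferon types, had signals of 437, 471 and 421 in MII, 638, 729 and 719 in MIII and 437, 397 and 465 in MIV. MIII was above both lines, by 0.63 ± 0.10 over MII (limma adjusted p = 0.00015) and with MIV at -0.66 ± 0.10 against MIII (adjusted p = 8.22e-05), and a further IRF1 probe set gave 1.04 and -1.56. IRF9, the DNA-binding part of ISGF3, averaged 236 ± 7.8 in MII, 333 ± 67.0 in MIII and 270.5 ± 37.2 in MIV (mean ± SD, 3 arrays), with 0.45 ± 0.16 for MIII against MII (adjusted p = 0.0334). Neither gene reached the fold minimum with the probe set used.

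ISG15, a ubiquitin-like protein joined to newly made proteins, is among the most strongly induced ISGs in most cells. Here its signal was 318, 307 and 275 in MII, 295, 383 and 328 in MIII and 313, 259 and 293 in MIV. The arrays overlapped in all comparisons, and MIII against MII gave 0.15 ± 0.13 (limma adjusted p = 0.395). USP18, which removes ISG15 and dampens the receptor, had signals of 315, 230.2 and 222 in MII, 168, 205 and 135 in MIII and 201, 194 and 281 in MIV, with -0.55 ± 0.20 for MIII against MII (adjusted p = 0.0358). MIII had the lowest mean for USP18, by less than 2-fold, and the MIV arrays overlapped those of MIII (0.38 ± 0.20, adjusted p = 0.13).

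HERC6, a relative of HERC5, averaged 461 ± 90.5 in MII, 362 ± 48.0 in MIII and 273 ± 22.0 in MIV, and IFI35, a partner of NMI, averaged 270.0 ± 29.2, 362 ± 40.1 and 455 ± 19.2 in MII, MIII and MIV (mean ± SD, 3 arrays). Their changes had opposite signs, with -0.71 ± 0.15 (limma adjusted p = 0.00157) for HERC6 and 0.72 ± 0.12 (adjusted p = 0.000336) for IFI35 in MIV against MII, and neither was called. HERC5, the main ligase for ISG15 in human cells, was not tested, with signals of 18 to 47.7. XAF1, a partner of apoptosis inhibitors, was not tested either, with signals of 4.4 to 61.7.

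**Figure D2:**
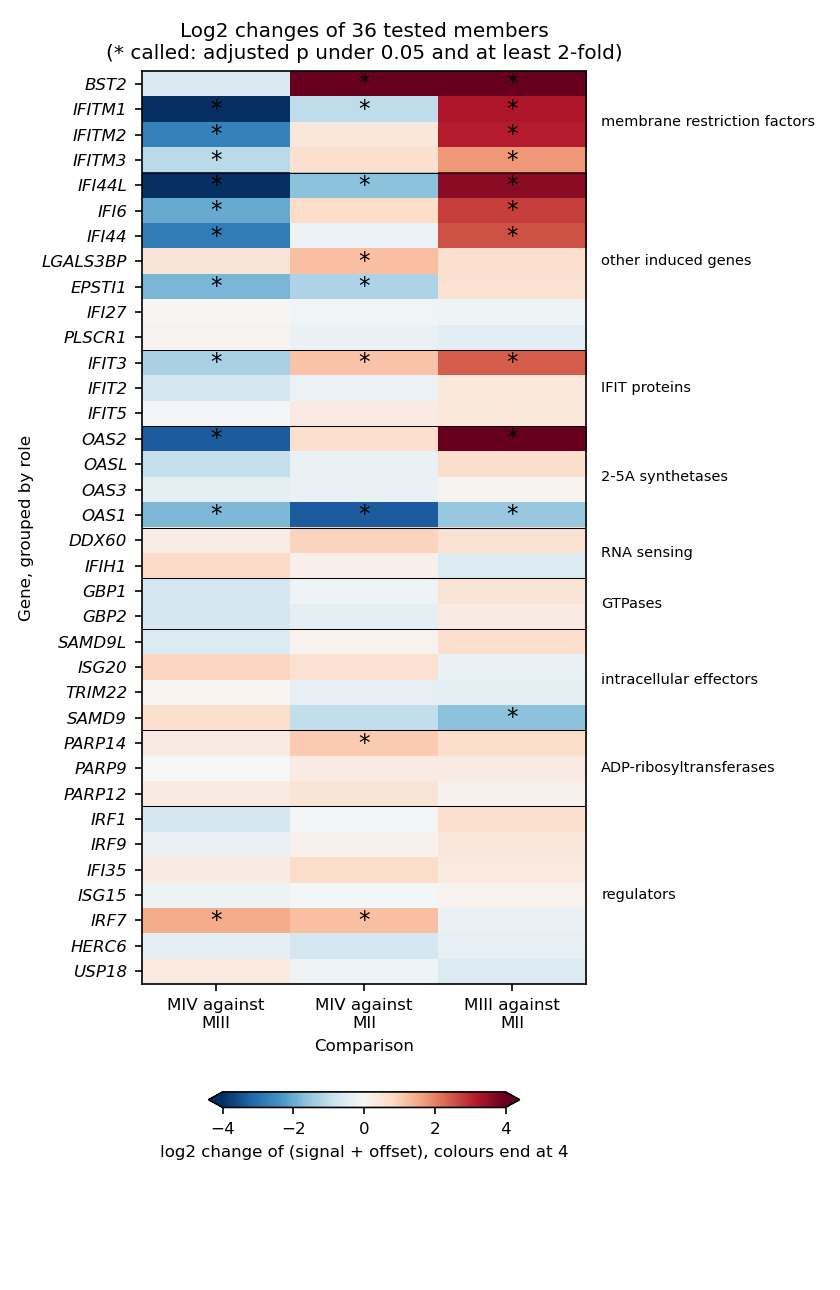
Log2 changes of the 36 tested interferon-stimulated genes, grouped by role (rows), in the 3 comparisons between lines (columns). Red is higher and blue is lower in the line named first, colours end at 4, and a star marks an adjusted p under 0.05 with at least 2-fold. The 9 red stars and 2 blue stars for MIII against MII stand beside 1 red and 10 blue stars for MIV against MIII.

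By mean signal, MIII was the highest line for 20 of the 36 tested members, MIV for 9 and MII for 7. The lowest line was MII for 16, MIV for 12 and MIII for 8. The 20 include IFI44, IFI44L, IFI6 and OAS2, which passed the filter only through MIII and so had to be high there. These counts were not made over all genes tested, so they cannot be set beside a share of all genes. Where a called member had a further tested probe set, the sign was the same for 5 of 5 such probe sets in MIII against MII, 4 of 4 in MIV against MIII and 2 of 2 in MIV against MII, and 5, 3 and 1 of these were also called.

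The other 7 members were not tested because fewer than 3 arrays exceeded the pooled median. They include MX1, MX2, IFIT1 and RSAD2, which are commonly used as readouts of an ongoing interferon response. Their signals, and those of XAF1, HERC5 and CMPK2, lay between 1.5 and 91.9 in all 3 lines. Low values on these arrays do not show that a gene is silent. When the filter was dropped, IFIT1 was called for MIII against MII (1.18, limma adjusted p = 0.0173) and for MIV against MIII (-1.54, adjusted p = 0.00296), RSAD2 for MIV against MII (1.03, adjusted p = 0.0383), and the other 5 in no comparison.

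Members that lie side by side in the genome did not all move together. In the gene order of GRCh38.p14, OAS1, OAS3 and OAS2 follow each other on chromosome 12, and their changes for MIII against MII were -1.52 ± 0.15, 0.11 ± 0.09 and 3.99 ± 0.32. SAMD9 and SAMD9L on chromosome 7 gave -1.63 ± 0.09 and 0.67 ± 0.18. Among tested genes on chromosome 10, IFIT3 gave 2.43 ± 0.20 between IFIT2 (0.43 ± 0.52) and IFIT5 (0.41 ± 0.12). IFIT1, which was not tested, lies between IFIT3 and IFIT5 and gave 1.18 when the filter was dropped. These groups thus each joined a called member to one that was not called or was called the other way.

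On other chromosomes some genes beside the members were called too. IFI44L and IFI44 on chromosome 1 gave 3.61 and 2.56, and the adjacent tested gene PTGFR, a prostaglandin receptor, was also higher in MIII than in MII (2.19 ± 0.42), while COX6A1P1 on the other side gave 0.20 ± 0.32 and was not called. IFITM2, IFITM1 and IFITM3 on chromosome 11 gave 3.15, 3.22 and 1.73, and the tested genes on either side were called as well, PGGHG at 1.58 ± 0.58 and B4GALNT4 at 1.06 ± 0.23. Beside BST2 on chromosome 19, GTPBP3 gave -0.01 ± 0.08 and MVB12A 0.16 ± 0.09, and SLC27A1, 2 places away, was called higher at 1.05 ± 0.14. On chromosome 3, PARP9 and PARP14 gave 0.34 and 1.05 for MIV against MII. The tested genes around them, KPNA1, DTX3L and HSPBAP1, gave 0.89, 0.96 and 0.93 in that comparison, so the change of PARP14 was close to theirs. Only PARP14 of these passed the fold minimum.

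**Figure D3:**
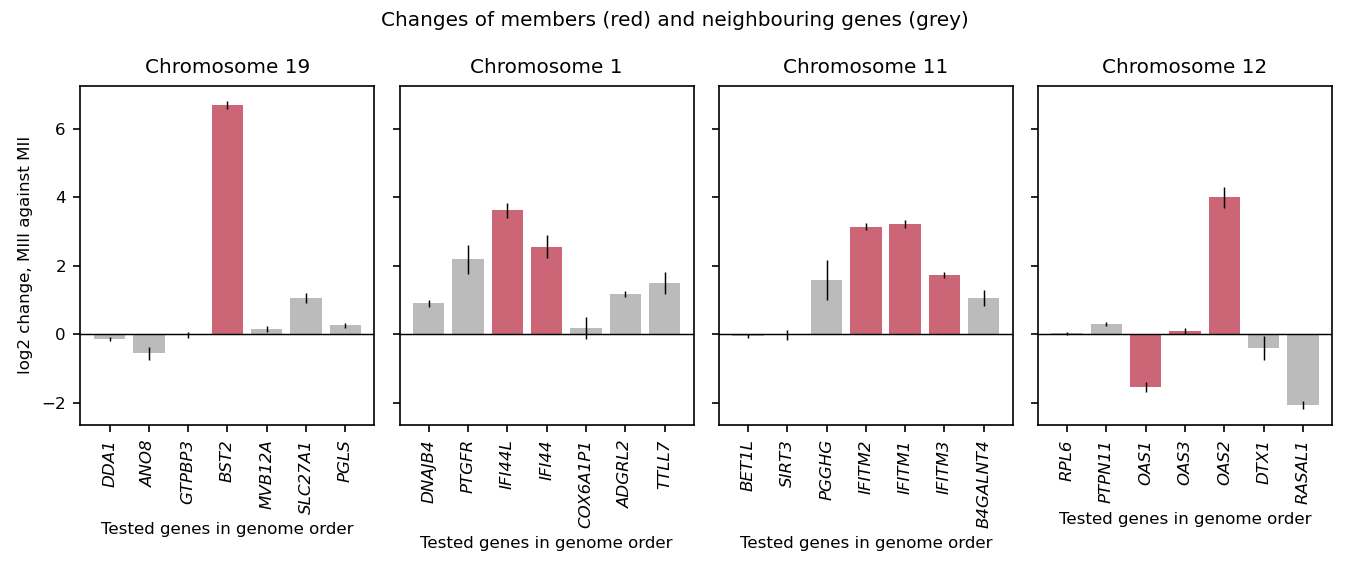
Log2 change for MIII against MII (bars, with SE as error bars) of members in red and of neighbouring tested genes in grey, in genome order on 4 chromosomes. BST2 gives 6.68 between adjacent genes near 0, with SLC27A1 at 1.05 further along, the IFI44 and IFITM groups stand beside other genes with positive changes, and on chromosome 12 OAS1, OAS3 and OAS2 give -1.52, 0.11 and 3.99.

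Most interferon genes lay under the pooled median. Of 20 interferon genes listed, 18 had a probe set and 2 were tested, IFNA17 and IFNE, and limma called neither in any comparison, with 0 at an adjusted p under 0.05. At an unadjusted p under 0.05 the count was 1 for MIV against MII (IFNA17, -1.04 ± 0.46) and 0 for the other comparisons. IFNB1, the interferon that most cells make first, averaged 8.1 ± 8.7 in MII, 7.5 ± 6.0 in MIII and 3.3 ± 2.3 in MIV (mean ± SD, 3 arrays). The summed signal of the 18 genes was 452.3 to 517.6 in MII, 493.4 to 562.5 in MIII and 418.2 to 497.2 in MIV, so the ranges overlapped between lines. IFNE, at 82.9, 109 and 84.8 in MIII, exceeded its MII arrays there (0.48 ± 0.27, limma adjusted p = 0.161). The untested IFNL1, at 58.9, 73.1 and 61.0 in MIII, exceeded its arrays of both other lines. IFNA17 went the other way, with its MIII arrays below those of MII. Arrays of the other interferon genes overlapped between MIII and MII.

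The receptors were measured in every line. IFNAR1 averaged 351 ± 13.6 in MII, 472 ± 10.5 in MIII and 261 ± 35.6 in MIV, with -0.82 ± 0.12 for MIV against MIII (limma adjusted p = 5.94e-05). IFNAR2 averaged 622 ± 101 in MII, 1100.0 ± 134 in MIII and 723 ± 57.5 in MIV, with 0.81 ± 0.12 for MIII against MII (adjusted p = 9.87e-05). Neither chain reached 2-fold by the probe sets used, while a suffix-free IFNAR2 probe set was called at 1.22 for MIII against MII and -1.15 for MIV against MIII. Of 6 receptor genes tested, IFNLR1, which binds type III interferon, was the one called by the probe sets used. It was lower in MIV than in MIII at a log2 change of -1.46 ± 0.22 (adjusted p = 6.47e-05). The interferon-gamma receptor chains IFNGR1 (0.77 ± 0.06) and IFNGR2 (0.60 ± 0.05) and the shared chain IL10RB (0.05 ± 0.15) were not called for MIII against MII. IFNGR1 gave -0.89 ± 0.06 for MIV against MIII, and was called there at -1.29 with a suffix-free probe set. All 6 receptor genes had a positive change for MIII against MII, 5 of them at an adjusted p under 0.05, which 47.2% of all genes met.

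Of the 8 tested kinases and factors that act after the receptor, IRF5 was the one called. IRF5, a factor of inflammatory and interferon gene induction, averaged 216 ± 13.5 in MII, 99.9 ± 21.4 in MIII and 469.7 ± 13.1 in MIV (mean ± SD, 3 arrays). It was higher in MIV than in MIII by 2.06 ± 0.16 (limma adjusted p = 9.96e-08) and higher in MIV than in MII by 1.06 ± 0.16 (adjusted p = 0.000104). It was lower in MIII than in MII 2.01-fold (adjusted p = 0.00012), close to the fold minimum, which was not called without MII replicate 1 (-0.96) or MIII replicate 1 (-0.87), and with a suffix-free IRF5 probe set it was -0.97 here and 0.93 for MIV against MII. By mean signal, IRF5 and IRF7 both had MIV highest and MIII lowest, although MII and MIII overlapped in IRF7.

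The kinases JAK1 (0.15 ± 0.06), TYK2 (0.42 ± 0.09) and JAK2 (0.30 ± 0.18) and the factor STAT3 (0.09 ± 0.06) gave changes under 2-fold for MIII against MII. IRF3, which starts interferon transcription after a sensor fires, gave -0.18 ± 0.06, IRF2, an opponent of IRF1, gave -0.04 ± 0.08, and IRF8 gave 0.31 ± 0.27. None of these 7 genes was called in any comparison. Among 11 negative regulators, SOCS3, a feedback inhibitor of JAK signalling, was called, higher in MIII than in MII by 1.65 ± 0.20 (limma adjusted p = 9.63e-06), lower in MIV than in MIII at a log2 change of -2.77 ± 0.20 (adjusted p = 5e-08) and lower in MIV than in MII at a log2 change of -1.12 ± 0.20 (adjusted p = 0.000449). The last was not called without MII replicate 3 (-0.94) or with the mean of all SOCS3 probe sets (-0.40).

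**Figure D4:**
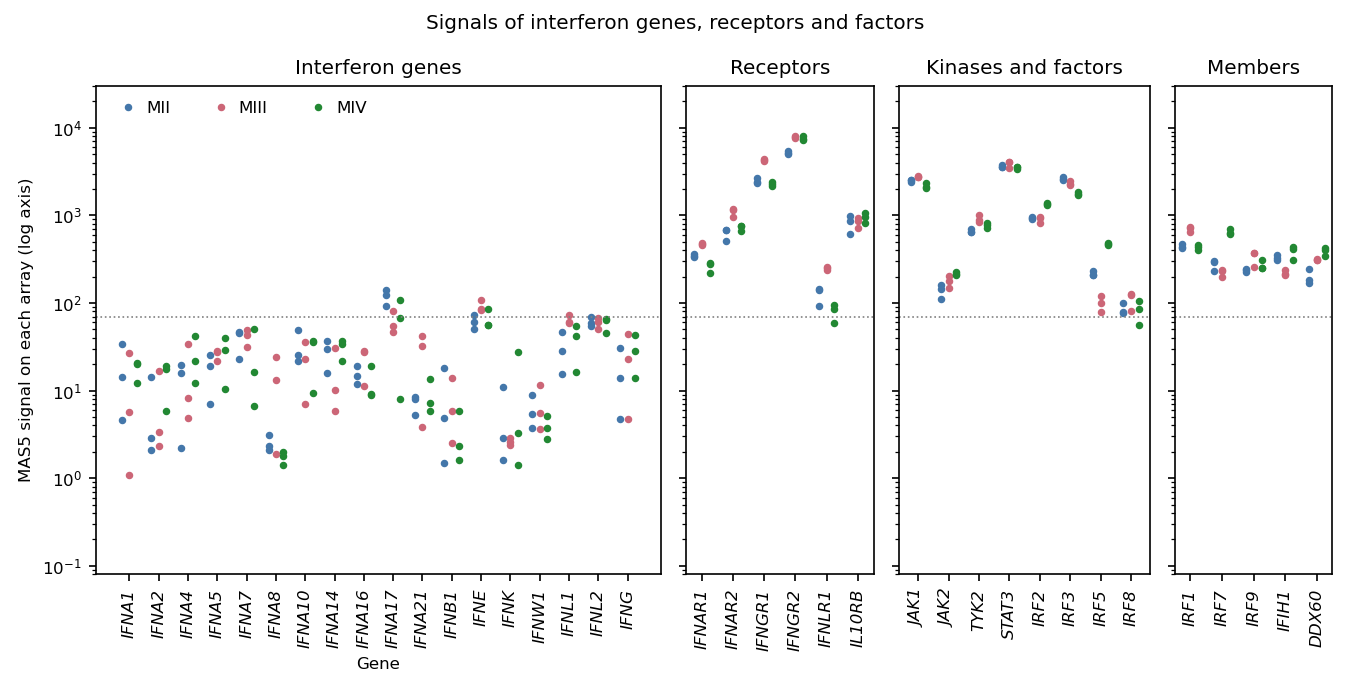
MAS5 signal on each array (points, log axis) of interferon genes, receptors, kinases and factors, and 5 members of the list, with MII in blue, MIII in red and MIV in green. The dotted line is the pooled median of 69.3. The interferon genes lie mostly under it in every line, receptors and kinases lie above it, and IRF7 and IRF5 are highest in MIV.

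Of 13 tested sensors and adaptors of foreign nucleic acid, 4 were called between MIV and MIII, 1 higher (7.69% against 4.95% of all genes) and 3 lower (23.1% against 7.79%). RIGI, the sensor of short viral RNA, averaged 255 ± 20.2 in MII, 187 ± 23.6 in MIII and 577 ± 59.0 in MIV. It was higher in MIV than in MIII by 1.54 ± 0.13 (limma adjusted p = 3.79e-07) and higher in MIV than in MII by 1.12 ± 0.13 (adjusted p = 1.42e-05), and the second fell to 0.54 with a suffix-free probe set. STING1, the adaptor of cytosolic DNA sensing, averaged 647 ± 67.2 in MII, 1172 ± 26.6 in MIII and 301 ± 63.6 in MIV, lower in MIV than in MIII at a log2 change of -1.92 ± 0.13 (adjusted p = 3.47e-08) and than in MII at a log2 change of -1.07 ± 0.13 (adjusted p = 1.94e-05), or at a log2 change of -0.91 without MIV replicate 1, which was not called. RIGI and STING1 thus differed between MIV and each other line in opposite directions.

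The DNA-binding IFI16 was lower in MIV than in MIII at a log2 change of -1.42 ± 0.06 (limma adjusted p = 3.93e-10). TLR3, the endosomal receptor for double-stranded RNA, was higher in MIII than in MII by 1.44 ± 0.23 (adjusted p = 0.000152) and lower in MIV than in MIII at a log2 change of -1.05 ± 0.23 (adjusted p = 0.00163). The second TLR3 value was not called after quantile (-0.93) or cyclic loess normalization (-0.92), or without MIII replicate 2 (-0.92). Between MIV and MII, 1 sensor was called higher (7.69% against 2.96% of all genes) and 1 lower (7.69% against 5.18%). Between MIII and MII, 1 was called higher, 7.69% against 6.17% of all genes.

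A further list of 45 interferon-responsive genes, of which 33 were tested, held 6 genes higher (18.2% against 6.17% of all genes) and 0 lower (against 5.55%) in MIII than in MII by the limma fit. In MIV, 0 were higher (against 4.95%) and 4 lower (12.1% against 7.79%) than in MIII, and 3 were higher (9.09% against 2.96%) and 0 lower (against 5.18%) than in MII. At an adjusted p under 0.05 alone, 21 of the 33 differed between MIII and MII, 63.6% against 47.2% of all genes. That count was 19 for MIV and MIII, 57.6% against 51.9%, and 19 for MIV and MII, 57.6% against 42.2%. UBE2L6, the enzyme that conjugates ISG15, averaged 94.7 ± 19.1 in MII, 2067 ± 291 in MIII and 341 ± 38.3 in MIV, higher in MIII than in MII by 4.21 ± 0.15 (limma adjusted p = 2.72e-11). APOBEC3G, a cytidine deaminase that mutates retroviral DNA, was higher in MIII than in MII by 3.05 ± 0.22 (adjusted p = 4.79e-08) and lower in MIV than in MIII at a log2 change of -2.82 ± 0.22 (adjusted p = 1.02e-07). SLFN11, which blocks replication under DNA damage, gave 3.16 ± 0.39 and -3.11 ± 0.39 in these comparisons, and PSMB9, a subunit of the immunoproteasome, gave 2.65 ± 0.11 and -0.99 ± 0.11. The medians over this list were 0.18 for MIII against MII, -0.15 for MIV against MIII and 0.15 for MIV against MII.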

How the data were processed

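RNA of each line was hybridised to 3 Affymetrix arrays. What was deposited are linear intensity values that the submitters' processing notes credit to MAS5, whose version was not given in the sources used here, and the trimmed mean was near 500.07 on every array. Of 54675 probe sets, 62 were controls, and the array annotation names 1 gene for 41091, several for 1801 and none for 11721. Each gene was read from its probe set with the highest mean, and only probe sets of 1 gene were used.

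The values log2(signal + 18.3), the offset being the pooled 25th percentile, were fitted in limma 3.58.1 (R 4.3.3) with 1 mean per line over all 9 arrays, which leaves 6 residual degrees of freedom, and an intensity trend. Benjamini-Hochberg adjustment ran over 12594 genes. Adjusted p-values of further probe sets come from the same fit over all probe sets that passed the filter, and their changes are given without one. All members are named; of other pathway lists, all receptors, kinases, STAT and IRF genes measured and up to 4 called genes with the largest change, and beyond this rule IFNB1, the tested interferons, markers and neighbouring genes, chosen after values were seen. The members and lists were chosen with earlier results of these data known. Alternatives covered offset, normalization, filter, variance prior, array weights, probe set choice, replicate block, thresholds and each array left out. Gene order and promoters come from RefSeq tables of GRCh38.p14; 35 of the 44 members had a promoter.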

Additional observations from a re-analysis of the deposited data

How the results depend on the processing

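No called change turned its sign under any alternative run. For MIV against MIII, members called higher numbered 0 with suffix-free probe sets, which include no IRF7 probe set, 8 without a fold minimum and 0 at an adjusted p under 0.01 with 4-fold; members called lower numbered 18 and 6 under the last pair of settings. For MIV against MII, members called higher numbered 3 with an offset of the pooled median, 3 with the mean of all probe sets, 13 without a fold minimum and 1 at the stricter threshold; members called lower numbered 1, 9 and 1 with the larger offset, no fold minimum and the stricter threshold. For MIII against MII, members called higher numbered 20 without a fold minimum, and members called lower 7 and, at the stricter threshold, 0. Without a fold minimum, the share of all genes called in either direction was 51.9% for MIV against MIII. It was 42.2% for MIV against MII and 47.2% for MIII against MII. Suffix-free probe sets left 24 members to test. Shares of all genes by direction were not counted under these settings, so the member counts cannot be set beside them.

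All genes called numbered 893, 535 and 810 with a filter at the pooled 75th percentile for MIV against MIII, MIV against MII and MIII against MII, which also left 21 members to test, 6530, 5310 and 5946 without a fold minimum, and 515, 257 and 499 at the stricter threshold; the larger offset gave 681 for MIV against MII. The median change of members for MIV against MII was -0.0535 without the filter and 0.343 with the stricter filter. With each array left out in turn, that median ranged from 0.012 to 0.235, its value without MIV replicate 3, members called higher from 4 to 6 and members called lower from 2, also without MIV replicate 3, to 4. The cause of these shifts was not tested.

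Replicate numbers did not pair the arrays, since same-numbered arrays of different lines correlated between -0.0392 and 0.0393 in their deviations from the line means. With the replicate number as a block, members called higher and lower numbered 1 and 10 for MIV against MIII, 5 and 4 for MIV against MII, and 9 and 2 for MIII against MII, as without it, with 1607, 1026 and 1483 genes called in all. Normalizations moved the median of all genes by under 0.1 on the log2 scale. Signals under the pooled median limit what can be read for the 7 untested members.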
